A study of Saccharomyces cerevisiae with 15 samples.

Results

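Translational efficiency, the amount of ribosome footprint on an mRNA relative to the amount of that mRNA, was compared between old and young mother cells of wild-type budding yeast. All genes with a mean of at least 20 counts over the 4 wild-type RNA-seq libraries were taken, which gave 5607 of the 7127 genes listed. Of these, 5452 were protein-coding in the R64 annotation, 152 had no match in it, 2 were pseudogenes and 1 was an rRNA gene. For every gene the change is the log2 footprint change with age minus the log2 mRNA change with age. A value of 1 means that footprints per mRNA doubled in old cells relative to the other genes. The genes left out held 0.139% of the wild-type RNA-seq counts. Just inside the limit were YDR274C, YPR059C and YPR126C at a mean of 20.0 counts, with efficiency changes of 0.52, 0.06 and −0.31. Just outside it, at 19.75 counts, were SPS2, snR82 and YML099W-A.

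Cells were of the Mother Enrichment Program strain UCC8773, in which estradiol activates a recombinase driven by the daughter-specific SCW11 promoter and so stops newborn daughters from dividing further, so that mothers can be grown to high age in batch culture. Mothers labelled with biotin grew in rich medium with 1 µM estradiol for 2 h (young) or 30 h (old) and were taken back on magnetic beads, so both ages carried the label and saw estradiol. Each age had 2 lysates, and libraries of equal replicate number were taken as the poly(A) RNA-seq and ribosome profiling library of 1 lysate, which gave 8 wild-type libraries. The same design in a strain lacking CTH2 (TIS11), whose product promotes decay of mRNAs with AU-rich elements when iron is scarce, was used here for comparison only. Old deletion cells had a single RNA-seq library. The labels do not say whether the 2 lysates of an age came from separate cultures, so the spread between them may be technical in part.

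The rate at which a protein is made depends on how much mRNA is present and on how many ribosomes each mRNA carries. Initiation usually sets the latter: the cap-binding factors recruit the small subunit, which scans to a start codon, and upstream reading frames, RNA structure or phosphorylation of eIF2 by the kinase Gcn2 can slow or redirect it. In yeast, mRNAs for ribosomal proteins are short, HAC1 mRNA is held back by its unspliced intron, and GCN4 mRNA is governed by upstream reading frames. Footprint counts of a library sum to its sequencing depth, so the measure ranks genes against each other and does not show whether translation as a whole rose or fell with age.

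Sequences that bear on initiation are shown first for genes with large changes, because the start codon and the bases before it lie in the mRNA itself. Each line gives 12 bases before the coding sequence and its first 12 bases from R64, 5′ to 3′ on the coding strand, with the start codon in capitals. ICL1, YMR317W and HAC1 had higher efficiency in old cells, and PDR12, PRY3 and INA1 lower efficiency.
ICL1 (chrV:286903-286926, minus strand): agtcaacgaaaaATGcctatcccc
YMR317W (chrXIII:907352-907375, plus strand): cgccgtatcaaaATGggttcatct
HAC1 (chrVI:75167-75190, plus strand): acaaccgccactATGgaaatgact
PDR12 (chrXVI:450366-450389, minus strand): attaataaaaaaATGtcttcgact
PRY3 (chrX:293970-293993, minus strand): acgaaaacgcttATGctggagttt
INA1 (chrXII:951144-951167, plus strand): caaattattgcgATGaattttaaa
The third base before the start codon, where an A is the common base in yeast, was A in the first 4 of these, C in PRY3 and G in INA1. Over all called protein-coding genes it was A in 125 of 187 with higher efficiency (66.8%), in 168 of 250 with lower efficiency (67.2%) and in 61.4% of all 5452. An ATG within 50 bases before the start codon, searched on the coding strand, was present in 9.63% of the genes with higher efficiency, 12.4% of those with lower efficiency and 18.3% of all. The window is genomic sequence, and mapped 5′ ends of mRNAs were not used. Both called sets also had a higher median of young mRNA, 112 and 103 CPM, than all 5607 genes, at 47.6 CPM. The part of mRNA level in these shares was not tested.

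Efficiency was higher in old cells for 188 genes and lower for 250, at an adjusted p under 0.05 in edgeR's quasi-likelihood test with each lysate as a block. Together these 438 genes are 7.81% of those tested, and 1215 had an unadjusted p under 0.05. The genes with higher efficiency are 3.35% of those tested and include ICL1, HAC1 and 33 of 137 genes for cytosolic ribosomal proteins. The genes with lower efficiency are 4.46% and include PDR12, ZRT1, 5 of 20 tRNA synthetases and 4 of 11 histone genes. Without the lysate block, edgeR called 5 genes (0.0892%), all higher: PBI1, NFT1, DAN4, YMR317W and ICL1. With an old lysate left out, the spread between replicates came from the 2 young lysates alone. The coefficient of variation fitted by edgeR was then 9.88% or 9.94%, against 5.96% with a young lysate left out. Numbers of calls in such fits follow this spread too, so they do not show which lysates the calls rest on.

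Called genes differed with age in mRNA, in footprints or in both. Among the 188 genes with higher efficiency the median mRNA change was −0.44 and the median footprint change 0.40. In 86 of them the fitted mRNA change was below 0 and the footprint change above 0, in 59 both were below 0 and in 43 both were above 0. Among the 250 genes with lower efficiency the medians were 0.32 for mRNA and −0.37 for footprints. There the mRNA change was above 0 and the footprint change below 0 in 123, both were above 0 in 61 and both below 0 in 66. Few of these single changes passed their own tests, which compared the lysates of the 2 ages without a block. Of the 188, 9 rose in mRNA and 26 rose in footprints. Of the 250, 15 rose and 2 fell in mRNA, and 5 rose and 8 fell in footprints. Over all genes, 83 rose (1.48%) and 13 fell (0.232%) in mRNA, 96 together (1.71%). In footprints 63 rose (1.12%) and 13 fell (0.232%), 76 together (1.36%). Across the 5607 genes the mRNA and footprint changes correlated with Pearson's r of 0.639 and Spearman's rho of 0.634, as a description, since both come from the same lysates.

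**Figure D1:**
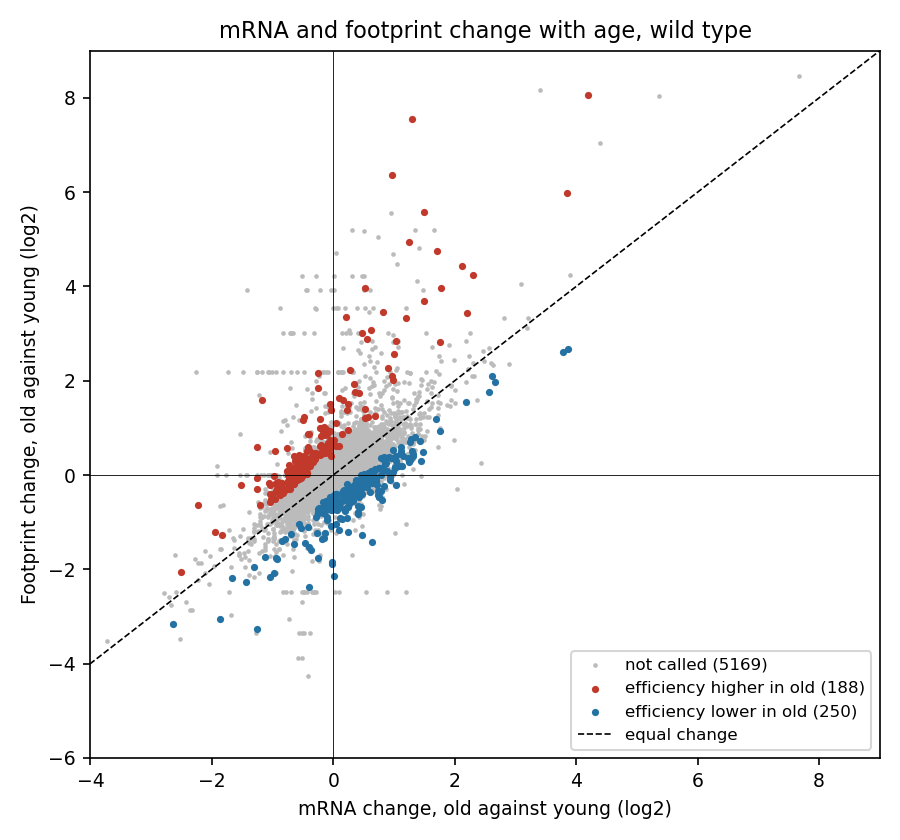
Log2 footprint change against log2 mRNA change with age in wild type, 1 point for each of 5607 genes, with genes of higher efficiency in old cells in red (188), of lower efficiency in blue (250), the others in grey and the line of equal change dashed. Red points lie above the line and blue points below it, and both colours appear on either side of 0 on each axis.

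The change moved both sets towards the middle of the range. In the 2 young lysates the genes later called higher had median log2 ratios of footprints to mRNA of −0.82 and −0.70, and in the 2 old lysates −0.07 and −0.01. Genes called lower had 1.24 and 1.15 in the young lysates and 0.49 and 0.52 in the old ones. The young libraries enter both the starting level and the change, so these medians are a description. Over all 5607 genes, the SD of the log2 ratio was 1.51 and 1.46 in the young lysates and 1.34 and 1.30 in the old ones. The deletion strain, whose libraries played no part in the calls, had SDs of 1.45 and 1.41 in young cells and 1.27 in old lysate 1. There, the genes called higher in wild type had medians of −0.85, −0.98 and 0.05, in the same order, and the genes called lower 1.25, 1.22 and 0.47.

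Library depth and spread differed with age in ways that touch every value below. Total counts lay between 3116643 and 4971687 in wild type, so 3 counts correspond to between 0.558 and 1.02 CPM (counts relative to library size, a limit for counting error only). The scaling factors (trimmed mean of M values) were 1.08 and 1.1 for young and 1.29 and 1.38 for old RNA-seq, and 0.729 and 0.744 for young and 0.920 and 0.945 for old ribosome profiling. Lysates 1 and 2 of young cells differed with an SD over genes of 0.59 (log2) in mRNA, 0.66 in footprints and 0.51 in efficiency, and those of old cells with 0.25, 0.31 and 0.37. The 2 young lysates differed in the same genes in both assays (r = 0.674 across genes between the mRNA and the footprint difference, against 0.112 in old lysates). The part of these differences in the results was not tested.

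The largest increases were in genes whose mRNA was present in young cells while few or no footprints lay on it. ICL1 encodes isocitrate lyase, the enzyme of the glyoxylate cycle that lets cells build sugar from acetate. Its mRNA was at 17.1 and 23.2 CPM in young and 31.6 and 27.7 CPM in old libraries. Its footprints were at 10.2 and 5.70 CPM in young and 124 and 124 CPM in old libraries, with no overlap. The efficiency change was 3.42 (SE 0.30, edgeR adjusted p 2.88e-10), with a footprint change of 3.96 (edgeR adjusted p 0.00357) and an mRNA change of 0.53 that did not pass (edgeR adjusted p 0.23).

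PBI1 had 9.32 and 16.5 CPM of mRNA in young cells and 31.0 and 34.2 CPM in old cells. Only 1 footprint was counted in both young libraries together, against 296 in both old ones, a ratio of 228 with an exact 95% interval from 40.7 to 9049.9. Its fitted efficiency change was 6.26 (SE 0.70, edgeR adjusted p 4.24e-08), the highest of all genes. NFT1, of the multidrug-resistance family of ABC transporters, had 2 footprints in the young and 236 in the old libraries, and its mRNA, at 14.8 and 16.5 and then 31.8 and 30.2 CPM, did not pass (edgeR adjusted p 0.0817). In all, 9 of the 188 genes had at most 3 footprint counts in each young library, and no called gene had a group wholly at 0. For these 9 the fitted change depends on the prior count, and the footprint ratio ran from 3.09 (LDS2, exact 95% interval 1.12 to 10.5) to 299 (TIR4, 82.4 to 2469.8). These intervals cover counting error only.

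DAN4 and TIR4 encode cell wall mannoproteins made at low oxygen, and both were in this group of 9. DAN4 footprints numbered 4 in the young and 261 in the old libraries, at 0.68 and 0.67 CPM against 37.9 and 29.7 CPM. Its mRNA was at 12.9 and 11.7 CPM in young and 33.5 and 37.2 CPM in old cells. TIR4 differed in that its mRNA also climbed steeply, from 5.70 and 6.88 CPM to 128 and 108 CPM (log2 change 4.20, edgeR adjusted p 0.00303). The uncharacterised gene YMR317W had 2.38 and 1.01 CPM of footprints in young and 57.7 and 48.8 CPM in old cells, with mRNA at 22.3 and 19.3 and then 54.9 and 44.9 CPM. Its efficiency change of 3.70 (SE 0.40, edgeR adjusted p 2.44e-08) ran from 3.30 to 4.31 over the alternative analyses. It was called in 14 of 15, and no adjusted p listed was above 0.0354 (edgeR without the block).

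INO1, which encodes the enzyme of the first step of inositol synthesis, had 12.9 and 8.18 CPM of mRNA in young and 19.2 and 18.1 CPM in old cells. Footprint levels were 1.70 and 3.35 CPM in young and 26.5 and 29.5 CPM in old cells, an efficiency change of 2.59 (SE 0.47, edgeR adjusted p 0.000312). The other genes among the 12 with the largest increases at a mean of at least 10 CPM were MLO1 (3.14), FRE5, a putative ferric reductase (3.04), LDS2, which acts in spore wall assembly (2.75), and AAD6, annotated as a pseudogene (2.51). AAD6 fell to 1.42 and was not called without young lysate 1, and it was called in 7 of 14 alternatives. For all 12 the 2 old lysates lay above the 2 young ones, a condition under which they were chosen. The lysates of the 2 ages did not overlap in 51.0% of all 5607 genes.

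**Figure D2:**
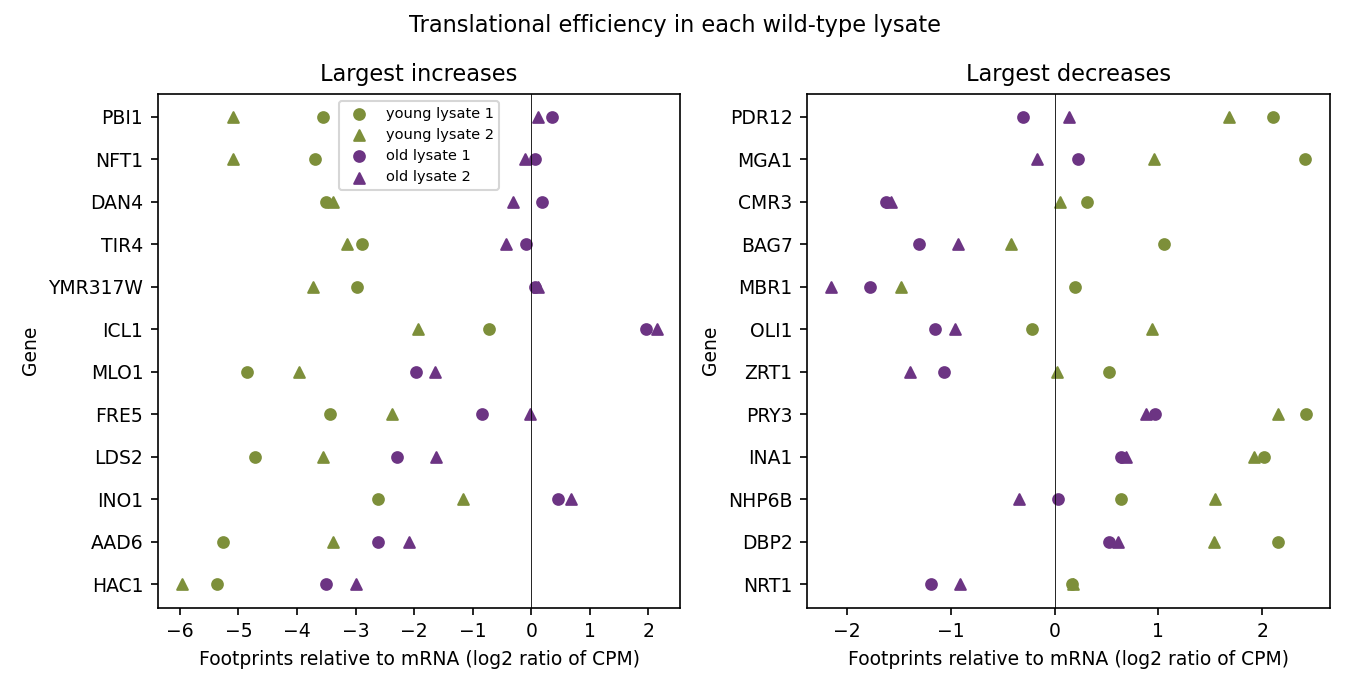
Log2 ratio of footprints to mRNA (CPM, prior count 2) in the 2 young (green) and 2 old (purple) wild-type lysates, for the 12 genes with the largest called increases (left) and decreases (right) whose mean reached 10 CPM and whose ages did not overlap. For ICL1 the young lysates lie at −0.72 and −1.94 and the old ones at 1.96 and 2.14, and for PDR12 the young lysates lie at 2.10 and 1.68 and the old ones at −0.30 and 0.14.

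HAC1 encodes the transcription factor of the unfolded protein response, and its mRNA (chromosome VI, 75179 to 76147, plus strand) is known to be translated well only after Ire1 cuts out an intron of 252 bases in the cytoplasm. That intron lies at 75840 to 76091 in R64, and the 2 junctions that Ire1 cuts are printed with the bases on either side of the cut in capitals.
HAC1 5′ junction (chrVI:75828-75851, plus strand): ggcgtaatccaGCcgtgattacga
HAC1 3′ junction (chrVI:76080-76103, plus strand): ttgtactgtccGAagcgcagtcag
HAC1 mRNA was at 481 and 387 CPM in young and 404 and 334 CPM in old cells, groups that overlap. Footprints were at 11.2 and 5.70 CPM in young and 34.9 and 41.2 CPM in old cells, with no overlap. The efficiency change was 2.41 (SE 0.25, edgeR adjusted p 6.03e-09), and the footprint change was 2.17 (edgeR adjusted p 0.0434). The log2 ratio stayed far below that of most genes also in old cells, at −3.51 and −3.0. The length listed for HAC1 is that of the joined coding sequence, 717 bases, and the counts do not separate spliced from unspliced mRNA. Beside HAC1, the list of endoplasmic reticulum chaperones and response genes held 17 of 19 members that were not called, SEC61 of the translocation channel was lower (−0.65), and the list's median change was 0.02, which was below 0 in 3 of 15 alternatives, the length offset among them.

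Of 18 genes of trehalose and glycogen metabolism, 4 of glycogen metabolism had higher efficiency in old cells, and none of these 4 passed in mRNA (edgeR adjusted p from 0.0899 to 0.535). GLC3, the glycogen branching enzyme, had 464 and 123 CPM of mRNA in young and 64.9 and 62.4 CPM in old cells. Its footprints were at 675 and 144 CPM in young and 262 and 267 CPM in old cells. The 2 young lysates thus differed several-fold in both assays, while the ratio within a lysate was close, at 0.54 and 0.23 on the log2 scale in young and 2.00 and 2.09 in old cells. The efficiency change of GLC3 was 1.65 (SE 0.16, edgeR adjusted p 1.88e-09) and ran from 1.51 to 1.81 over the alternatives. GPH1, glycogen phosphorylase, changed by 1.18 (SE 0.15, edgeR adjusted p 1.24e-06), and its mRNA was at 684 and 154 CPM in young and 148 and 148 CPM in old cells. GDB1, the debranching enzyme, changed by 0.75, over mRNA of 178 and 58.9 CPM in young and 77.8 and 87.5 CPM in old cells, which overlap. PGM2, phosphoglucomutase, changed by 0.53. Over the 18 genes, 7 had a change above 0. The list's median was −0.07, and 0.18 without young lysate 1.

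**Figure D3:**
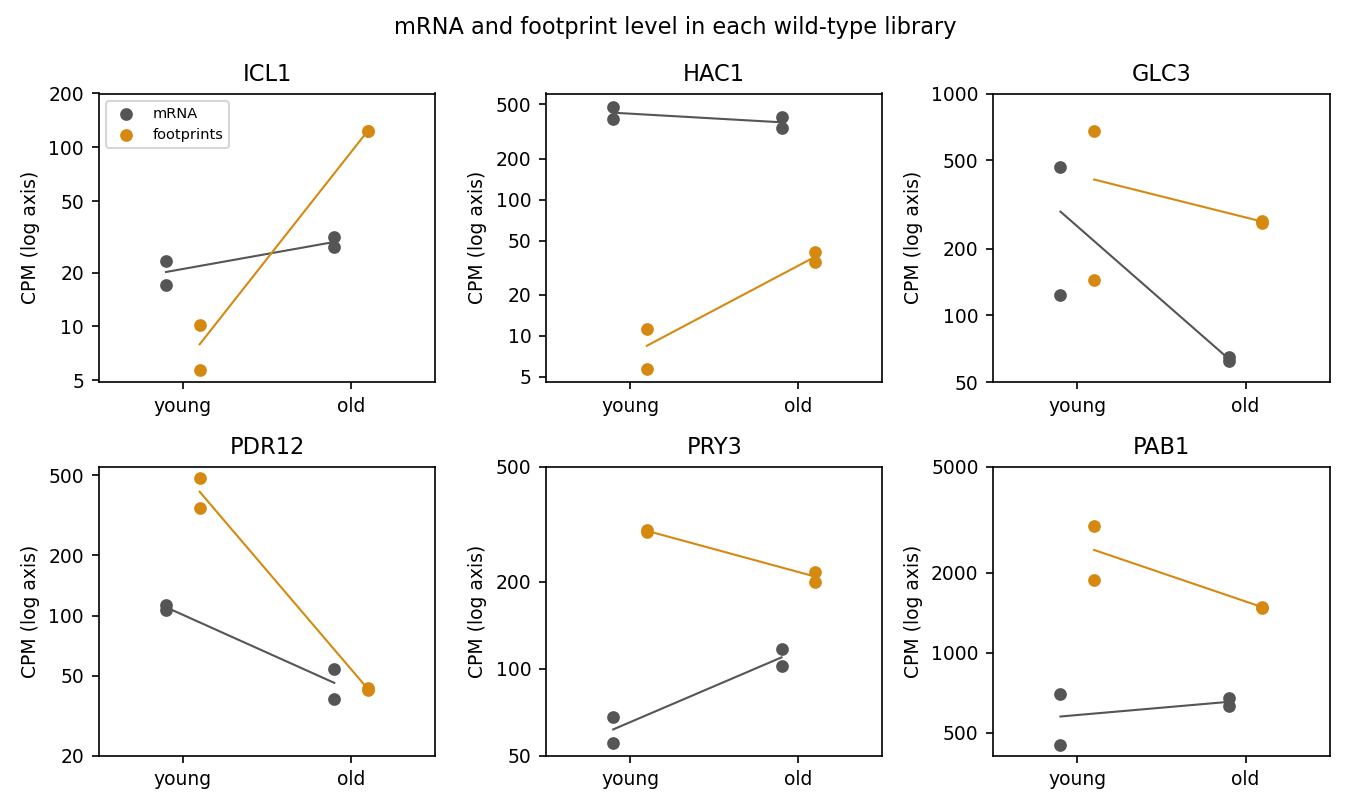
CPM (log axis) of mRNA (grey) and footprints (orange) in each young and old wild-type library for 6 genes, with a point for each library and a line between the group means. For ICL1 and HAC1 the orange points of young and old cells are apart while the grey points lie close together or overlap. For GLC3 the 2 young libraries of each assay are far apart, and for PDR12, PRY3 and PAB1 the orange points are lower in old cells.

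PDR12 had the largest called decrease. It encodes an ABC transporter that pumps weak organic acids out of the cell. Its mRNA was at 113 and 107 CPM in young and 53.9 and 38.4 CPM in old cells, and its footprints were at 485 and 344 CPM in young and 43.7 and 42.3 CPM in old cells. Neither assay's groups overlapped. The efficiency change was −1.99 (SE 0.19, edgeR adjusted p 1.88e-09), on top of a footprint change of −3.27 (edgeR adjusted p 0.00376) and an mRNA change of −1.26 that did not pass (edgeR adjusted p 0.056).

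INA1 and CMR3 had mRNA levels whose age groups overlapped and footprints that did not. Neither footprint change passed its own test (edgeR adjusted p 0.157 and 0.109). INA1 mRNA was at 108 and 218 CPM in young and 179 and 175 CPM in old cells, with footprints at 442 and 826 and then 279.6 and 283 CPM. Its efficiency change was −1.30 (SE 0.15, edgeR adjusted p 6.03e-08). CMR3, a putative zinc finger protein, had footprints at 35.4 and 17.1 CPM in young and 6.24 and 7.91 CPM in old cells and changed by −1.85 (SE 0.35, edgeR adjusted p 0.000475). ZRT1, the high-affinity zinc transporter, changed by −1.48 and NRT1, a transporter of nicotinamide riboside, by −1.25. NRT1 mRNA was at 20.5 and 18.6 CPM in young and 32.5 and 34.2 CPM in old cells, while its footprints were at 23.1 and 21.1 and then 14.0 and 18.0 CPM.

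For DBP2, an RNA helicase of the DEAD-box family, mRNA and footprints parted the other way. Its mRNA was at 85.7 and 217 CPM in young and 428 and 408 CPM in old cells. In footprints it lay at 383 and 628 CPM in young and 615 and 625 CPM in old cells, so the old values lay within the young range while the ratio was lower in both old lysates. The efficiency change was −1.25 (SE 0.16, edgeR adjusted p 2.20e-06). NHP6B, a chromatin protein with 1 near-identical copy and an overlapping gene (YBR090C), changed by −1.26 and is uncertain for both reasons, since the use of strand in counting is not given in the sources used here.

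The changes of MGA1, BAG7 and MBR1, among the 12 largest decreases under the same limit, rested on young lysate 1. BAG7, a GTPase-activating protein for Rho1, had 40.8 and 5.70 CPM of footprints in young and 4.24 and 4.64 CPM in old cells. Its change of −1.79 became −0.77 without young lysate 1, that of MGA1 went from −1.95 to −1.02 and that of MBR1 from −1.67 to −0.51, and none of the 3 was called then. OLI1, subunit 9 of the ATP synthase, is encoded in mitochondrial DNA and translated by mitochondrial ribosomes, so its ratio is not one of the cytosolic machinery. The ratio is uncertain also because the RNA-seq was of poly(A) RNA, and its capture of mitochondrial mRNA was not tested. OLI1 changed by −1.52 (edgeR adjusted p 0.00956) and by −0.89, not called, without young lysate 2. Of the 8 listed genes of mitochondrial DNA, only OLI1 and 1 other had enough counts to be tested.

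Genes of the translation machinery are given by class, with no test between classes. Of 29 initiation factors and regulators, 5 were lower (FUN12, PAB1, EAP1, TIF3 and TIF4631) and 2 higher (CAF20 and TIF6), with a median of −0.25. PAB1, the poly(A)-binding protein, had 451 and 701 CPM of mRNA in young and 675 and 633 CPM in old cells. Footprint levels lay at 1881 and 2993 CPM in young and 1493 and 1476 CPM in old cells, with no overlap, and the efficiency change was −0.89 (SE 0.14, edgeR adjusted p 2.68e-05). FUN12, the subunit-joining factor eIF5B, changed by −0.90 (SE 0.14, edgeR adjusted p 4.42e-05), and TIF4631, the scaffold eIF4G, by −0.63. CAF20, which binds the cap-binding protein and represses initiation, changed by 0.93 (SE 0.20, edgeR adjusted p 0.00211). Its footprints were at 61.2 and 70.7 CPM in young and 94.9 and 93.5 CPM in old cells.

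Among 18 elongation, termination and recycling factors with enough counts, 5 were lower, with a median of −0.28. They were NEW1 (−1.16), LIA1, the second enzyme of hypusine synthesis on eIF5A (−0.70), EFT1 and EFT2, the near-identical genes for elongation factor 2, and SUP35, the release factor eRF3 (−0.55). NEW1, an ABC protein of translation, had 111 and 260.1 CPM of mRNA in young and 311 and 313 CPM in old cells, and 777 and 1222 and then 831 and 755 CPM of footprints. HYP2, the main gene for eIF5A, was listed at 0 in every library and was not analysed. RLI1, the recycling factor with iron-sulfur clusters, changed by −0.31 and did not pass (edgeR adjusted p 0.467). Of 20 tRNA synthetases, 5 were lower (GLN4, VAS1, DPS1, DED81 and KRS1) and 19 had a change below 0, with a median of −0.32 and a range over the alternatives from −0.43 to −0.25. The same median over all genes was −0.003.

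In the deletion strain, the medians of the 3 classes were −0.06 for initiation factors, 0.06 for elongation and termination factors and −0.25 for tRNA synthetases. FUN12 changed by −1.02 there, PAB1 by −0.90, NEW1 by −1.41 and CAF20 by 1.30.

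Genes for cytosolic ribosomal proteins followed. Of 57 genes of the small cytosolic subunit 17 were higher, and of 80 of the large subunit 16 were higher and 2 lower (RPP0 and RPL4B). Both medians were 0.18. In young lysates 1 and 2 the median log2 ratios were −0.42 and −0.25 (small subunit) and −0.32 and −0.04 (large subunit). Over all genes they were −0.04 and −0.09. RPS7A had 2416 and 3049 CPM of mRNA in young and 1542 and 1321 CPM in old cells, without overlap. Its footprints overlapped, at 1447 and 2112 and then 1697 and 1409.6 CPM, and the efficiency change was 0.75 (SE 0.14, edgeR adjusted p 0.000501). RPS22A changed by 0.65 and RPL11A, which has 1 near-identical copy, by 0.81. Median mRNA changes were −0.66 and −0.59 for the small and large subunit, and median footprint changes −0.42 and −0.37.

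This ribosomal protein result was smaller with a length offset and without young lysate 1. The offset was fitted over all genes tested, these 137 included, so it cannot tell coding length from membership of this list. The 137 genes have a median coding length of 435 bases, against 1257 for all genes. With a length-dependent offset the medians were 0.02 and 0.04, with 5 higher and 2 lower in the small and 5 higher and 5 lower in the large subunit. Without young lysate 1 they were 0.12 and 0.07, with 7 higher and 2 lower, and 7 higher and 5 lower. Of the 137 genes, 94 have a near-identical copy that could share reads. Among the 43 without one, 12 were higher and the median was 0.23. In the deletion strain, 125 of the 137 had a change above 0, with medians of 0.65 and 0.63.

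Coding length also differed among called genes at large. The median was 717 bases in those with higher efficiency, 1669.5 in those with lower efficiency and 946.5 in the 154 genes with higher efficiency that are not cytosolic ribosomal proteins. Across 5452 genes the log2 length and the efficiency change had r of −0.162 and rho of −0.211, as a description. With the length offset 142 genes were higher and 254 lower. The GC content of the third codon position had medians of 38.5%, 38.0% and 37.6% in the higher set, the lower set and all genes.

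Making ribosomes was described by 115 biogenesis genes and 27 of RNA polymerases I and III. In the former, 13 were lower and 1 was higher (TIF6), with a median efficiency change of −0.12, beside a median mRNA change of 0.68 and a footprint change of 0.54. RRP5, a large assembly factor, had 79.5 and 162 CPM of mRNA in young and 181 and 181 CPM in old cells. The footprint levels were 633 and 1116 and then 861 and 731 CPM, and the efficiency change was −0.74 (SE 0.15, edgeR adjusted p 0.00145). DBP2 (above), NOC4 (−0.80) and SDA1 (−0.67) changed in the same direction. In the polymerase list RPC53 (−0.76) and RPA190 (−0.65) were lower, with a median of −0.06. They are 7.41% of its 27 genes, below the 7.81% of all genes, so nothing is read from this count. In the deletion strain RPC53 changed by 0.06 and RPA190 by −1.05.

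GCN4, the activator of amino acid synthesis genes, is the textbook case of control by upstream reading frames. Its mRNA was at 1194 and 1276 CPM in young and 1541 and 1346 CPM in old cells. In footprints it stood at 202 and 212 CPM in young and 171 and 137 CPM in old cells. The groups did not overlap in either assay and lay in opposite directions. Neither change passed its own test, at 0.21 in mRNA (edgeR adjusted p 0.547) and −0.43 in footprints (edgeR adjusted p 0.291). The efficiency change was −0.66 (SE 0.15, edgeR adjusted p 0.00349), and −1.16 in the deletion strain. HOL1, a polyamine transporter under an upstream frame, had nearly level mRNA of 119.6 and 116 and then 105 and 111 CPM. Its footprints were at 34.0 and 42.2 CPM in young and 12.7 and 17.7 CPM in old cells, and it changed by −1.21 (SE 0.23, edgeR adjusted p 0.000625). With TIF4631, these were the 3 called of 17 genes with upstream frames, and 4 of the 17 had a change above 0. The list's median was −0.21, and −0.05 without old lysate 1.

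CPA1, whose upstream frame stalls ribosomes when arginine is plentiful, rose in mRNA from 60.3 and 58.9 to 214 and 249 CPM (log2 change 1.94, edgeR adjusted p 0.00992). Footprints rose alongside, from 24.2 and 40.9 to 118 and 127 CPM, and the efficiency change was −0.04 (SE 0.21, edgeR adjusted p 0.967). CLN3 (−0.08) and YAP1 (−0.21) did not pass either. HAP4, of the respiratory activator complex, changed by −0.61 (edgeR adjusted p 0.107). OAZ1, whose expression needs a frameshift, changed by 0.86 (edgeR adjusted p 0.100), while ABP140, another frameshift gene, was lower (−0.66), the 1 call among 3. Among 9 genes of the eIF2 kinase pathway GCN4 was the 1 call, and the median was −0.23.

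Of 57 amino acid synthesis genes, 5 were lower (LYS20 and its near-identical copy LYS21, BAT1, ASN1 and ILV5) and 1 was higher (HOM6). These are 10.5% of the list, against 7.81% of all genes, and the list's median was −0.09. ASN1, an asparagine synthetase, had 333 and 342 CPM of mRNA in young and 633 and 596 CPM in old cells. Footprint levels came to 998 and 1137 and then 1262 and 1266 CPM, and its efficiency change was −0.62 (SE 0.14, edgeR adjusted p 0.00423).

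**Figure D4:**
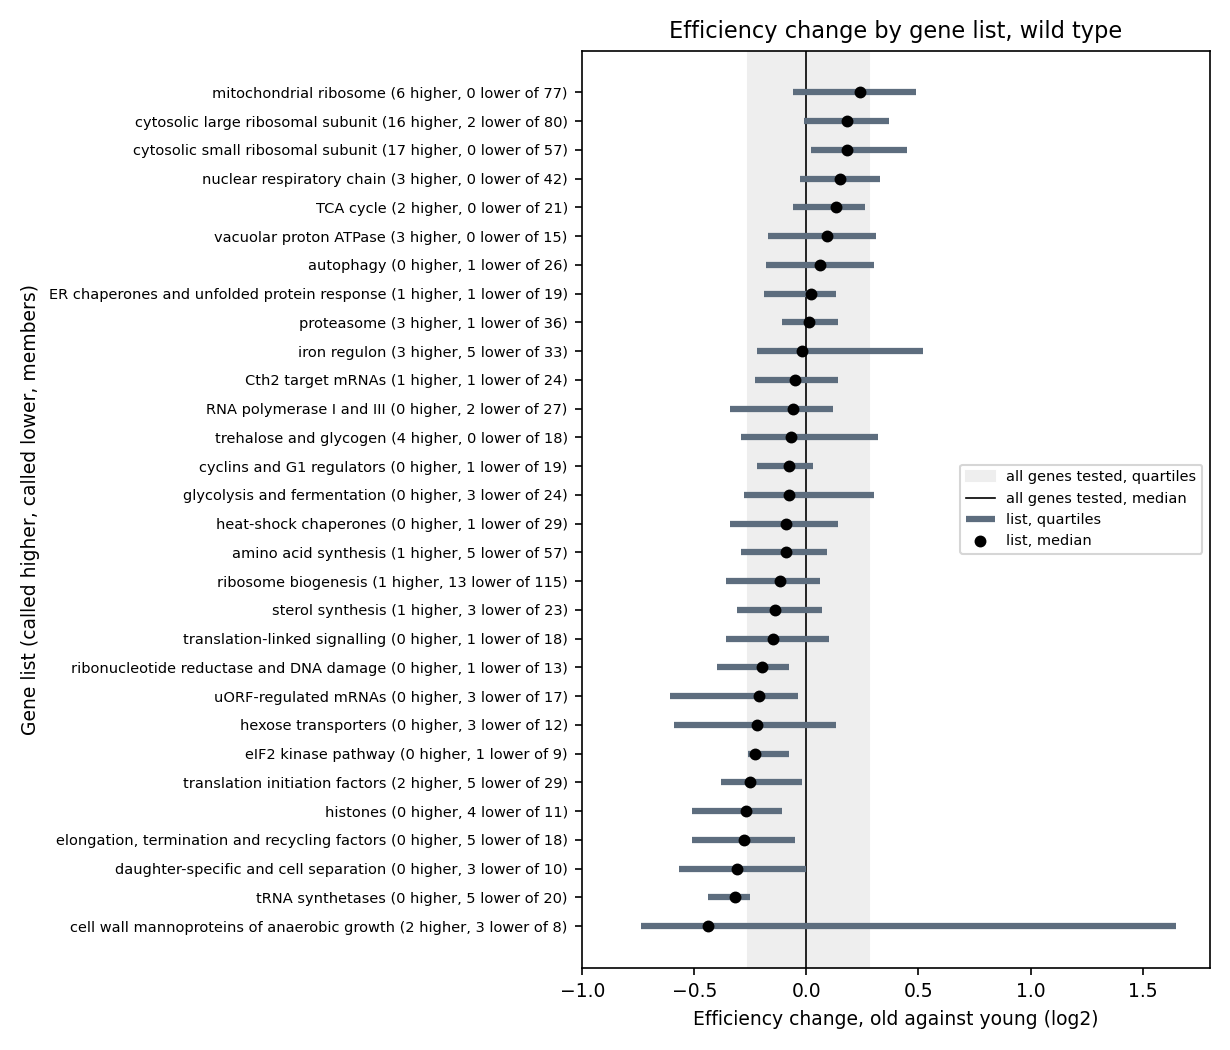
Log2 efficiency change with age by gene list, with the median (point) and quartiles (bar) of each list of at least 8 tested genes, beside the median and quartiles of all 5607 genes (line and grey band). The names carry the number of genes called higher and lower and the number tested, from the mitochondrial ribosome at 0.24 to the cell wall mannoproteins of anaerobic growth at −0.44.

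Mitochondrial genes encoded in the nucleus are set beside all genes, of which 3.35% were higher and 2785 of 5607 had a change above 0. In either direction 7.81% of all genes were called. The shares called of the mitochondrial ribosome (7.79%) and respiratory chain (7.14%) lie below that, so nothing is read from these 2 counts. Of 77 genes of the mitochondrial ribosome 6 were higher (7.79%), 55 had a change above 0 and the median was 0.24, the highest of the lists with at least 8 genes. MRP7 had 91.6 and 62.3 CPM of mRNA in young and 71.7 and 74.2 CPM in old cells, and footprints of 45.2 and 37.2 and then 68.4 and 62.2 CPM. Its change was 0.73 (SE 0.20, edgeR adjusted p 0.0223). MRX14, with 1.32, overlaps YDR114C. Of 42 respiratory chain genes 3 were higher (COX7, SDH4 and QCR2, 7.14%) and 30 had a change above 0, with a median of 0.15 that was −0.0 with the length offset. SDH4 anchors succinate dehydrogenase in the membrane and is also on the list of Cth2 targets. Its footprints were at 135 and 72.7 CPM in young and 126 and 135 CPM in old cells, over mRNA of 122 and 67.1 and then 76.6 and 78.6 CPM (change 0.61, edgeR adjusted p 0.0261).

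Of 21 genes of the TCA cycle, IDP2 (2.15) and PYC1 (0.98) were higher, with a median of 0.13. They are 9.52% of the list, near the 7.81% called of all genes. IDP2 had only 9 and 3 footprint counts in the young libraries. PYC1, pyruvate carboxylase, had 112 and 78.6 CPM of mRNA in young and 190.3 and 194 CPM in old cells, and 174 and 229 and then 780.3 and 842 CPM of footprints. Its efficiency change was 0.52 without young lysate 1. In glycolysis and fermentation 3 of 24 genes were lower (12.5%). They were HXK2, the main hexokinase on glucose (−0.70), and PFK1 and PFK2, the subunits of phosphofructokinase (−0.48 and −0.45). HXK2 had 1063 and 1096 CPM of mRNA in young and 899 and 746 CPM in old cells, and 3824 and 3849 and then 1865 and 1725 CPM of footprints. Hexose transporters held 3 lower genes of 12 (HXT2, HXT1 and HXT3), and HXT2 changed by −0.91 (SE 0.15, edgeR adjusted p 0.000126) while its mRNA rose by 1.32 (edgeR adjusted p 0.0455). The transporter median of −0.22 was 0.12 without old lysate 1.

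Iron genes were called in both directions. Of 33 genes of the iron regulon, which Aft1 and Aft2 switch on when iron is low, 16 rose in mRNA and 12 in footprints. In efficiency 3 were higher (FRE5, FIT1 and HMX1) and 5 lower (FRE4, FIT3, FRE1, FET3 and FIT2). The median of −0.02 changed sign in 7 of 15 alternatives. FIT3, a cell wall mannoprotein that retains siderophore iron, had 119 and 148 CPM of mRNA in young and 2123 and 1822 CPM in old cells. The footprint levels lay at 229.6 and 406 CPM in young and 2040.1 and 1995 CPM in old cells. Both rose, footprints by less, and the efficiency change was −1.18 (SE 0.16, edgeR adjusted p 1.64e-06). FIT1 of the same family went the other way: mRNA was at 5.70 and 5.21 and then 99.0 and 60.3 CPM, and footprints were at 1.70 and 4.36 and then 234 and 155 CPM, a change of 2.11 (SE 0.40, edgeR adjusted p 0.000547).

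TIS11 itself rose 3.19 in mRNA and 3.11 in footprints on the log2 scale (edgeR adjusted p 0.00707 and 0.0192), and its efficiency change was −0.05 (SE 0.28, edgeR adjusted p 0.968). Of 24 listed Cth2 target mRNAs, SDH4 was higher, HEM13 of heme synthesis was lower (−0.62) and 22 were not called. The called genes are 8.33% of the list, near the 7.81% of all genes. The median was −0.05, and above 0 at 0.12 without young lysate 1.

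Cell wall mannoproteins of anaerobic growth had 2 higher (DAN4 and TIR4) and 3 lower genes (TIR1, TIR3 and CWP2) among 8. TIR1 mRNA was at 8.80 and 20.4 CPM in young and 239.7 and 175 CPM in old cells, and its footprints were at 67.0 and 75.1 and then 439 and 426 CPM. Both rose with age, and the efficiency change was −1.19 (SE 0.24, edgeR adjusted p 0.00223). Of 24 seripauperins, a family of near-identical genes whose reads cannot be assigned with certainty, 5 had enough counts. PAU17 (2.17) was called, on 2 and 4 young footprint counts, and all 5 had a change above 0. Their median mRNA change was 4.95, so the old libraries weighed most in reaching the limit of 20 mean counts. Nothing is read from the shared sign.

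Daughter-specific and cell separation genes were examined because daughters are the other cells a preparation of mothers could hold. Of the 10 genes, 3 were lower in efficiency (PRY3, EGT2 and SCW11), and the median was −0.31. PRY3, a cell wall protein of the CAP family, had 55.4 and 67.9 CPM of mRNA in young and 102 and 117 CPM in old cells. In footprints it was at 298 and 303 CPM in young and 200.2 and 217 CPM in old cells, and the efficiency change was −1.36 (SE 0.17, edgeR adjusted p 3.64e-07). EGT2, a cell wall protein of cell separation, changed by −0.99 (SE 0.16, edgeR adjusted p 3.51e-05). The summed mRNA of the 10 genes was 936 and 1394 CPM in young and 1456 and 1588 CPM in old cells, and their summed footprints were 1964 and 2736 and then 2222 and 2383 CPM. None of the 10 was at 0 in any library, and their part in the results was not tested.

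Histone genes held 4 lower members of 11 (HHO1, HTA1, HHF1 and HTB1) and a median of −0.27. HTB1, for histone H2B, had 907 and 988 CPM of footprints in young and 689 and 532 CPM in old cells, over mRNA of 409 and 522 and then 487 and 352 CPM. HTA1 and HHF1 have near-identical copies. Of 23 sterol synthesis genes ERG5, ERG13 and ERG7 were lower and ERG2 higher. The proteasome list of 36 had 3 higher genes (PUP2, RPN8 and PRE9) and 1 lower, UMP1, a chaperone of proteasome assembly (−0.80). These are 11.1% of the list, against 7.81% of all genes. The list's median of 0.01 was below 0 in 3 of 15 alternatives, another scaling (RLE) among them. Of 15 subunits of the vacuolar proton ATPase VMA8, VMA11 and VMA6 were higher, with a median of 0.09 that was −0.05 with the length offset.

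In 5 other lists 1 gene each was called, which is 3.45% to 7.69% of a list and at or below the 7.81% of all genes, so nothing is read from these counts. The genes were YDJ1 of 29 heat-shock chaperones (−0.56), ATG15, a vacuolar lipase, of 26 autophagy genes (−0.98) and WHI5, the inhibitor of G1 entry, of 19 cyclins and G1 regulators (−1.22). SML1, the inhibitor of ribonucleotide reductase, was the call among 13 genes of that enzyme and of DNA damage (−0.52), and SFP1, an activator of ribosomal protein genes, among 18 of signalling linked to translation (−0.74). WHI5 footprints were at 34.7 and 35.5 CPM in young and 21.5 and 19.4 CPM in old cells, over mRNA of 6.47 and 11.2 and then 13.3 and 10.7 CPM.

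The deletion strain gave values for the same genes from libraries that took no part in the calls. Its change was computed from old lysate 1, the only one with RNA-seq, against the mean of the 2 young lysates, and has no test. Of the 188 genes higher in wild type 183 had a change above 0, and of the 250 lower genes 244 had a change below 0. That is 97.5% of the 438, against 72.1% of all genes with the same sign in both strains. Against each young lysate separately, 94.5% of the called genes kept the wild-type direction both times, against 61.3% of all genes. Over the 438 genes the 2 strains' changes had r of 0.874 and rho of 0.849, and over all 5607 genes 0.426 and 0.572, as a description.

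Among named genes HAC1 changed by 3.98 in the deletion strain, ICL1 by 3.20, PBI1 by 4.07 and YMR317W by 3.37. PDR12 changed by −1.95, INA1 by −1.68 and PRY3 by −2.74. TIR4 was at 0.56 against 3.84 in wild type, and MBR1 at −0.43 against −1.67. Sizes also differed between the strains for HAC1 (2.41 in wild type), PBI1 (6.26) and PRY3 (−1.36). Values were closer for ICL1 (3.42 in wild type), YMR317W (3.70), PDR12 (−1.99) and INA1 (−1.30). No test of the difference between strains was made.

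**Figure D5:**
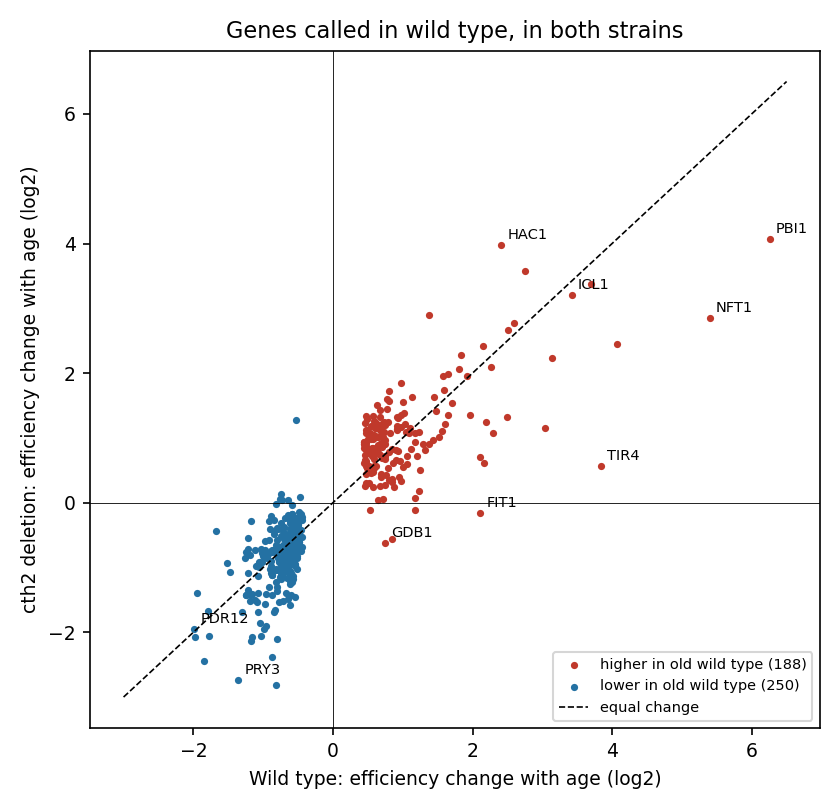
Log2 efficiency change with age in the deletion strain (old lysate 1 against the mean of 2 young lysates) against that in wild type, for the 438 genes called in wild type, with the line of equal change dashed. Nearly all red points (higher in old wild type) lie above 0 and nearly all blue points (lower) below 0 on the vertical axis, and FIT1 and GDB1 lie on the other side.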

How the data were processed

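RNA-seq and ribosome profiling of young and old cells were read as deposited. The authors deposited raw counts per gene and a gene length in each file, per the file headers, with no normalisation. The submitters' processing notes name cutadapt 3.4, Bowtie 1.1.2, STAR 2.7.9a and build R64; the counting program and the use of strand are not given in the sources used here. The labels' protocols say that aliquots of the lysates served both assays, but not that equal replicate numbers mark 1 lysate. Equal numbers were taken as 1 lysate here, and the lysate was a block in the main test. The correlation of the replicate difference between assays was 0.674 in young and 0.112 in old lysates.

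Tests used edgeR 4.0.16 in R 4.3.3 (TMM factors, robust quasi-likelihood fit, 2 residual degrees of freedom, Benjamini-Hochberg adjustment over 5607 genes, threshold 0.05). The model held the lysate, the assay and the interaction of assay with age. Changes of mRNA and footprints came from separate fits without a block. An SE is the absolute log2 change divided by the square root of F. Log2 ratios used a prior count of 2. Alternatives used DESeq2 1.42.0 and limma 3.58.1, other scalings and filters, a length offset (a spline with 4 degrees of freedom), all 15 libraries, no block, and 1 lysate left out at a time. Replicates differed by more than sampling noise (chi-square per degree of freedom from 6.30 to 62.6), so none was a duplicate. Near-identical copies (BLAST+ 2.17.0, 90% identity or more, 50% of the length or more) mark 198 genes. Of 7127 genes 6047 matched R64, and 99.1% of 6008 protein-coding genes had the R64 coding length. Named genes were up to 12 called genes per direction with the largest change whose mean reached 10 CPM and whose lysates did not overlap, 10 genes of translational control, and up to 4 called members per list. Other called members are named only to complete a count. The genes, the 33 lists and the tests were chosen with earlier results of these data known. The efficiency test was also tried on counts simulated from the fitted means and dispersions of these data, with 200 of 5607 genes changed 2-fold. It recovered 134 of the 200 and made 13 false calls. Without the lysate block it recovered 0 and made 0 false calls. The simulated means and dispersions came from the fit with the block. The simulation therefore cannot show whether equal replicate numbers mark 1 lysate or which of the 2 fits suits these data.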

Additional observations from a re-analysis of the deposited data

Results flagged for a closer look

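Among the 113 named genes, GDB1 and FIT1 had an efficiency change of opposite sign in the 2 strains, in every lysate of each. Over all 438 called genes, 5 had the opposite sign in the deletion strain against both young lysates. The other 3, named after their values were seen, were SAP30 (0.84, against −0.56 without CTH2), MNN4 (1.18 against −0.12) and REE1 (−0.75 against 0.13). GDB1, the glycogen debranching enzyme, changed by 0.75 in wild type and by −0.63 in the deletion strain. FIT1 changed by 2.11 in wild type and by −0.16 in the deletion strain. The deletion strain had 1 old lysate with both assays, and the difference between strains was not tested.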

How the results depend on the processing

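The count of 438 genes fell to 5 without the lysate block (365 at an unadjusted p under 0.05), to 4 in all 15 libraries without it and to 210 in DESeq2, of which 195 were among the 438. For mRNA and footprints alone, the replicate block below pairs young and old lysates of equal number, a pairing that the labels do not state. Leaving out a lysate gave 97 to 697 calls (494 and 697 without young lysates 1 and 2, 107 and 97 without old lysates 1 and 2). The other alternatives gave 322 to 506. The mRNA count of 96 was 484 with the replicate block, 169 without a filter, 383 in DESeq2 and 0 to 2323 when a lysate was left out. The footprint count of 76 was 237 with the replicate block, 229 in DESeq2 and 0 to 2043 when a lysate was left out. Without old lysate 1, mRNA gave 0 calls (409 at an unadjusted p under 0.05) and footprints 0 (280), and without old lysate 2 they gave 5 and 0 (382 and 259), against 1929 and 1377 without young lysate 1 and 2323 and 2043 without young lysate 2. In these fits the lone lysate is assumed to vary like those of the other age.

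Of the 113 named genes none changed sign with a call. Without the block 101 lost the call, in DESeq2 49, with the length offset 17, and without old lysates 1 and 2 71 and 67. With 2 lysates per age and 2 residual degrees of freedom, single genes near the threshold are uncertain, and footprint counts of at most 3 per young library limit the size of a change in 9 genes.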
